A study of Mus musculus with 6 samples.

Results

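The genes described here are 10 transcripts used as markers of intraepithelial lymphocytes: Cd3e, Cd3g, Cd8a, Itgae, Gzma, Gzmb, Cd7, Ccl5, Nkg7 and Cd160. They were picked by symbol as known markers, with earlier results of these data known, and all 10 were found, each in 1 row, among 55487 genes. RNA-seq was run on colon intestinal epithelial cells (IECs) of dextran sodium sulphate (DSS)-treated mice, with 3 libraries of Nsd2 f/f mice and 3 of Nsd2 Vil-KO mice, named here by group and replicate number (f/f 1, Vil-KO 1). NSD2 is a histone methyltransferase that deposits H3K36me2. In Nsd2 Vil-KO mice the floxed Nsd2 alleles are recombined by Cre under the Villin promoter, which is active in gut epithelial cells and not in lymphocytes, so the deletion is not directed to lymphocytes. Both groups had the C57BL/6J background, littermates served as controls, and colitis was induced with 2% DSS at 2 months of age. The day of DSS treatment on which these IECs were taken is not given in the sources used here, and no library came from mice without DSS. Nothing states whether a library came from 1 mouse, so p-values measure the spread between these libraries.

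Intraepithelial lymphocytes are T cells that live between the epithelial cells of the gut and come along when an epithelial layer is stripped from the tissue. Many carry CD8 and the integrin chain CD103, encoded by Itgae, which binds E-cadherin on the epithelial cell, and many have a gamma delta rather than an alpha beta T cell receptor. They are held in a poised cytotoxic state with stores of granzymes, and respond to epithelial ligands such as IL-15, butyrophilin-like proteins and the CD160 ligand HVEM. The 10 genes are not exclusive to these cells: T cells of the lamina propria and natural killer cells share most of them.

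Total counts per library ranged from 15439123 to 20350539. Colon epithelium markers summed to between 14130 and 26550 normalised read counts (CPM) per library, and Cdh1, which encodes E-cadherin, lay between 1180 and 1563 CPM, against 43.8 to 259 CPM for 8 pan-leukocyte markers. Of the receptor genes shared by natural killer cells and cytotoxic T cells, Klrd1 had 9 to 36 counts per library and Klrk1 4 to 16. Klra7 had 0 to 10, Klre1 0 to 9 and Ncr1 and Klrb1c 0 to 3. The other listed natural killer type receptors and adaptors were higher in most libraries. Il2rb had 19 to 65 counts, Cd244a 3 to 49, Hcst 14 to 55, Tyrobp 13 to 520 and Fcer1g 24 to 725. A pair of libraries stood apart from the others: f/f 3 and Vil-KO 2 held 4296 and 3684 counts of Xist, the transcript of the inactive X chromosome, while the other 4 held 1 to 5. In f/f 3, mitochondrial genes also took 19.6% of the counts, against 5.51% to 9.13% elsewhere. Results are therefore also given without the Xist-containing libraries.

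Promoter sequence was at hand for 7 of the 10 genes in RefSeq (GRCm38.p6), as windows from 250 bases before to 50 bases after the transcription start. The windows of Gzma, Gzmb and Nkg7 are printed because these cytotoxic effector genes were all lowest in f/f 3, as described further on. Cd3e, Cd8a and Ccl5 were lowest there as well and are not printed. Capitals mark matches to a Runx motif (TGTGGT, or ACCACA on the other strand) or a T-box motif (TCACAC, or GTGTGA on the other strand), the core letters bound by factors that direct cytotoxic programmes in lymphocytes. The starts are those of RefSeq and for Gzmb and Nkg7 differ from the outer bound of the GENCODE gene.
Gzma, chr13:113100932-113101231, minus strand: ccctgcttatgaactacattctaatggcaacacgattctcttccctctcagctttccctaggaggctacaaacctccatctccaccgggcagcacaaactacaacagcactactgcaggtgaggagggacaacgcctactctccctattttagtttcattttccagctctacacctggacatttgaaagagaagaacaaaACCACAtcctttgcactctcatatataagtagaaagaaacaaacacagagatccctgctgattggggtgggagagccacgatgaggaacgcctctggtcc
Gzmb, chr14:56262285-56262584, minus strand: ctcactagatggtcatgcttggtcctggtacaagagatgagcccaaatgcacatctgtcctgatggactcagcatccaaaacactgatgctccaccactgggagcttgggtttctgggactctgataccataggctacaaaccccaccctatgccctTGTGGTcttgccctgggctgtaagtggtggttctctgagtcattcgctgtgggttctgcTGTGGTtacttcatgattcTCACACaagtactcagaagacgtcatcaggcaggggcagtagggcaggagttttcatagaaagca
Nkg7, chr7:43436888-43437187, plus strand: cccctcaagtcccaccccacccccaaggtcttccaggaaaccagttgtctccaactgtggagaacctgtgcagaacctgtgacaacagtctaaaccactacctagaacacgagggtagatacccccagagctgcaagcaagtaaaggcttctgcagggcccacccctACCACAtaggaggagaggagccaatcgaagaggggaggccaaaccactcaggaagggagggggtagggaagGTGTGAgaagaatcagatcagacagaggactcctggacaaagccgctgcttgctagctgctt
A Runx match was present in the windows of 4 of the 7 genes, Gzma, Gzmb, Nkg7 and Cd160, and in 16.8% of 32851 windows of the same length over the genome. The Gzmb window held the Runx letters at 2 places, starting 93 and 34 bases before the transcription start. A T-box match was present for 3 genes, Gzmb, Nkg7 and Cd160, and in 14.5% of all windows. An E-box of the letters CAGCTG, which read the same on both strands, was present for Cd3g, Cd8a and Cd160, and in 16.3% of all windows. Of the other genes lowest in f/f 3, Cd3e and Cd8a had 0 Runx and 0 T-box matches and Ccl5 had no window. The printed windows therefore do not stand for all genes low in that library. All matches describe letters and no binding was measured.

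No difference between the genotypes was called for any of the 10 genes. All 10 passed the filter on low counts and were tested among 14650 genes by edgeR's quasi-likelihood test with Benjamini-Hochberg adjustment. At an adjusted p below 0.05, 0 members were called, and 0% of all tested genes were. DESeq2 called 4 genes and none of them was a member. At a fold change above 1.2 with an unadjusted p below 0.05, again 0 members were called, against 1.65% of tested genes higher and 1.65% lower in Nsd2 Vil-KO. No member had 3 Nsd2 Vil-KO libraries all above or all below the 3 Nsd2 f/f libraries, while 5.21% of tested genes lay wholly higher and 4.70% wholly lower. The estimate was higher in Nsd2 Vil-KO for 4 members and lower for 6, with a median log2 fold change of -0.16 beside 0.0012 over all tested genes. The median turned positive without f/f 1 (0.19) or Vil-KO 2 (0.02), and was lowest without Vil-KO 1 (-0.72). In whole-population RNA such as this, fewer lymphocytes and less RNA per lymphocyte cannot be told apart.

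**Figure D1:**
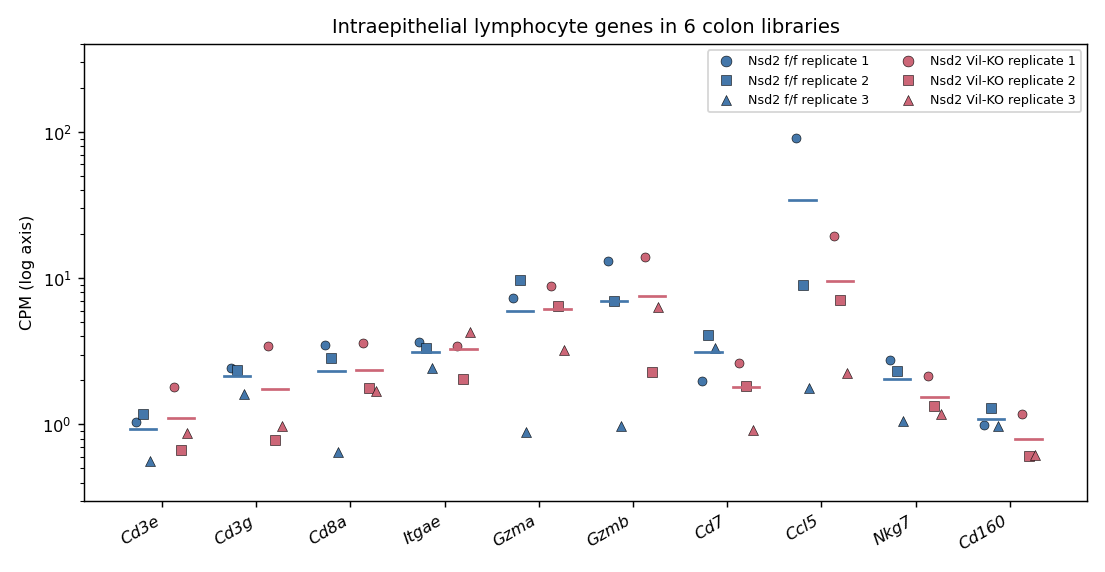
CPM of the 10 genes in each library on a log axis; circles, squares and triangles are replicates 1, 2 and 3, blue is Nsd2 f/f, red is Nsd2 Vil-KO, and bars are group means (n = 3). The genotypes overlap for every gene, Ccl5 reaches 91.4 CPM in f/f 1, and f/f 3 is the lowest library for 6 genes.

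The CD3 chains carry the signal of the T cell receptor into the cell and mark T cells of every kind. Cd3e (ENSMUSG00000032093, chromosome 9, 44998740 to 45009627, minus strand, GRCm38) was measured at 1.04, 1.18 and 0.566 CPM in f/f 1, f/f 2 and f/f 3. For Vil-KO 1, Vil-KO 2 and Vil-KO 3 the values were 1.80, 0.666 and 0.868 CPM, in that order. The lowest and the highest value were thus in libraries of opposite genotype, and the log2 fold change of 0.24 (SE 0.55, 95% interval -1.06 to 1.53) was smaller than its error. Behind the lowest value stood 7 reads, with an exact 95% Poisson interval of 2.81 to 14.4 that covers counting error only. The sign turned without Vil-KO 1, to -0.30. Cd3e shares 135 exon bases with the antisense gene Gm48719, and the strand setting of the counting is not given.

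Cd3g (ENSMUSG00000002033, chromosome 9, 44969572 to 44980431, minus strand) lies close to Cd3e in the genome. Its values were 2.43, 2.36 and 1.62 CPM in Nsd2 f/f and 3.46, 0.777 and 0.971 CPM in Nsd2 Vil-KO. Vil-KO 2 and Vil-KO 3 were below every Nsd2 f/f library and Vil-KO 1 was above all of them. The log2 fold change was -0.30 (SE 0.62, 95% interval -1.77 to 1.17). Without Vil-KO 1 it was -1.29, with an unadjusted p of 0.0455 by edgeR's quasi-likelihood test, the only member and the only omission to pass the screening criterion. Without Vil-KO 2 it was 0.04. The other CD3 genes, Cd3d and Cd247, had log2 fold changes of -0.50 (SE 0.45) and 0.59 (SE 0.68), with overlapping genotypes. Summed over these 4 genes, CD3 transcripts were at 5.65 ± 0.183 CPM (SD, n = 3) in Nsd2 f/f against 5.02 ± 2.70 CPM (SD, n = 3) in Nsd2 Vil-KO.

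Cd8a (ENSMUSG00000053977, chromosome 6, 71373427 to 71379173, plus strand) encodes the CD8 alpha chain, which gut T cells can display as a homodimer. It was at 3.47, 2.84 and 0.646 CPM in Nsd2 f/f and at 3.61, 1.78 and 1.69 CPM in Nsd2 Vil-KO. The lowest library, f/f 3, had 8 reads. The group means were near equal, 2.32 ± 1.48 and 2.36 ± 1.08 CPM (SD, n = 3), and the log2 fold change was -0.01 (SE 0.61, 95% interval -1.46 to 1.44). Cd8b1, encoding the beta chain of the conventional CD8 heterodimer, had a log2 fold change of 0.29 (SE 0.55). Cd4, the co-receptor of helper T cells, had 17, 13 and 0 counts in Nsd2 f/f and 32, 18 and 19 in Nsd2 Vil-KO. Its genotypes did not overlap, yet the difference of 1.02 on the log2 scale (SE 0.73) did not pass either criterion.

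Itgae (ENSMUSG00000005947, chromosome 11, 73090583 to 73147446, plus strand) anchors the lymphocyte to E-cadherin. Its values were 3.67, 3.31 and 2.42 CPM in Nsd2 f/f and 3.41, 2.05 and 4.29 CPM in Nsd2 Vil-KO. It varied least of the 10 genes, 2.09 times between its lowest and highest library, and had the narrowest interval, -0.91 to 1.00 around a log2 fold change of 0.05. The sign turned without f/f 3 (-0.095) or Vil-KO 3 (-0.20). Itgb7, the beta chain that pairs with it, had a log2 fold change of -0.28 (SE 0.53), and its epithelial ligand Cdh1 one of 0.07 (SE 0.24). Of 10 tested homing and retention genes 5 were higher and 5 lower, with none past the criterion.

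Granzyme A and granzyme B are serine proteases that cytotoxic lymphocytes release into target cells. Gzma (ENSMUSG00000023132, chromosome 13, 113093825 to 113100981, minus strand) was at 7.28, 9.69 and 0.889 CPM in Nsd2 f/f and at 8.87, 6.49 and 3.22 CPM in Nsd2 Vil-KO. Gzmb (ENSMUSG00000015437, chromosome 14, 56258838 to 56262260, minus strand) was at 13.0, 7.03 and 0.970 CPM in Nsd2 f/f and at 13.9, 2.27 and 6.39 CPM in Nsd2 Vil-KO. Both were lowest in f/f 3, with 11 and 12 reads, and spanned 10.9 and 14.3 times over the libraries. Their group means were close: 5.95 ± 4.55 against 6.19 ± 2.84 CPM for Gzma and 7.01 ± 6.03 against 7.50 ± 5.87 CPM for Gzmb (SD, n = 3). The log2 fold changes were 0.04 (SE 0.74) and 0.08 (SE 0.88), with 95% intervals of -1.71 to 1.78 and -2.00 to 2.16, so a difference of several-fold in either direction lay within the error. The sign of Gzma turned without f/f 3 (-0.45), Vil-KO 1 (-0.31) or Vil-KO 2 (-0.00096), and that of Gzmb without f/f 3 (-0.41) or Vil-KO 1 (-0.71). The pore-forming protein gene Prf1 had 3 to 19 counts per library and did not pass the filter on low counts. Of 9 listed cytotoxic granule genes 3 were tested, all 3 with lower estimates and none past the criterion.

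Nkg7 (ENSMUSG00000004612, chromosome 7, 43437073 to 43438249, plus strand) encodes a membrane protein of cytotoxic granules. Its values were 2.78, 2.30 and 1.05 CPM in Nsd2 f/f and 2.15, 1.33 and 1.18 CPM in Nsd2 Vil-KO, a log2 fold change of -0.42 (SE 0.49, 95% interval -1.58 to 0.73). Within the 4 libraries without Xist, Nkg7 was the 1 member whose Nsd2 Vil-KO libraries were both below both Nsd2 f/f libraries, with a log2 fold change of -0.60 and an unadjusted p of 0.20 by edgeR's quasi-likelihood test. In the libraries with Xist the order was the opposite, 1.33 CPM in Nsd2 Vil-KO against 1.05 CPM in Nsd2 f/f.

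Cd160 and Cd7 encode surface receptors of the immunoglobulin superfamily, and CD160 binds HVEM on epithelial cells. Cd160 (ENSMUSG00000038304, chromosome 3, 96798763 to 96829351, minus strand) was at 0.991, 1.30 and 0.970 CPM in Nsd2 f/f and at 1.17, 0.610 and 0.613 CPM in Nsd2 Vil-KO. Vil-KO 2 and Vil-KO 3 were below all Nsd2 f/f libraries and Vil-KO 1 was not. The log2 fold change was -0.44 (SE 0.47, 95% interval -1.55 to 0.68). Cd160 shares 68 exon bases with Pdzk1 on the opposite strand. Tnfrsf14, which encodes HVEM, lay between 3.22 and 15.2 CPM and was lowest in the Xist-containing libraries of both genotypes, 5.17 CPM in Nsd2 f/f and 3.22 CPM in Nsd2 Vil-KO.

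Cd7 (ENSMUSG00000025163, chromosome 11, 121036747 to 121039418, minus strand) was at 1.98, 4.08 and 3.31 CPM in Nsd2 f/f. In Nsd2 Vil-KO it was at 2.63, 1.83 and 0.920 CPM. It was the member nearest to a separation of the genotypes, with 1 Nsd2 Vil-KO library above 1 Nsd2 f/f library. The log2 fold change was -0.79 (SE 0.51, 95% interval -1.98 to 0.41), and the two-sided exact permutation test gave p = 0.2, where 0.1 is the smallest value that 3 against 3 allows. Cd7 did not follow the other members across libraries: in f/f 3, where 6 members were lowest, it held 3.31 CPM. It shares 122 exon bases with the antisense gene Gm11775.

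Ccl5 (ENSMUSG00000035042, chromosome 11, 83525778 to 83530518, minus strand) encodes the chemokine RANTES, which attracts T cells and monocytes and is made by activated and memory T cells as well as by other cells. It was at 91.4, 8.98 and 1.78 CPM in Nsd2 f/f and at 19.3, 7.10 and 2.25 CPM in Nsd2 Vil-KO. The 1844 reads of f/f 1 set the group mean of 34.0 ± 49.8 CPM (SD, n = 3), against 9.55 ± 8.79 CPM (SD, n = 3) in Nsd2 Vil-KO. The log2 fold change of -1.84 (SE 1.31, 95% interval -4.93 to 1.25) was the largest of the members and turned to 0.81 without that library. The chemokine genes Ccl3 and Ccl4 were also highest in f/f 1, at 29.0 and 49.1 CPM, and Ifng at 4.81 CPM. The same library had the highest summed levels of pan-leukocyte markers (259 CPM), macrophage and monocyte markers (469 CPM) and stromal markers (273 CPM). Their part in the Ccl5 value was not tested.

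**Figure D2:**
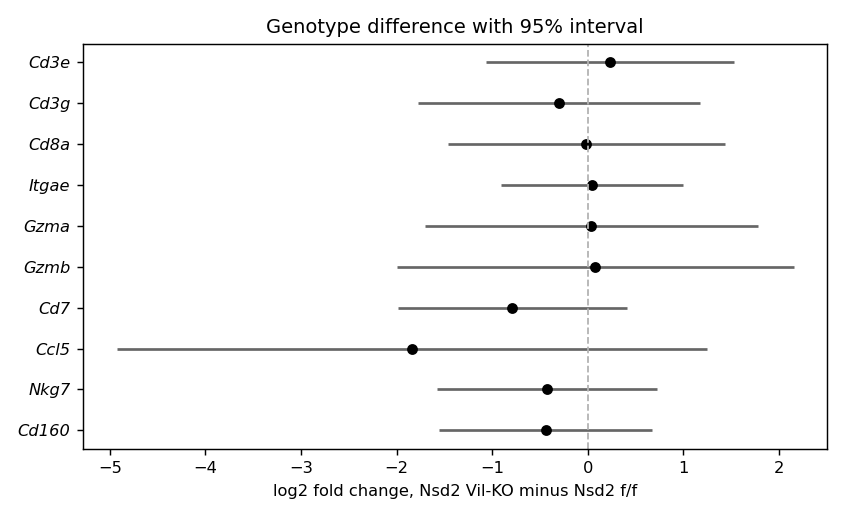
Log2 fold change of each gene (Nsd2 Vil-KO minus Nsd2 f/f, n = 3 and 3; dots) with its 95% interval from edgeR's quasi-likelihood fit (lines). Every interval includes 0; that of Itgae is the narrowest, -0.91 to 1.00, and that of Ccl5 the widest, -4.93 to 1.25.

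Per kilobase of exon, the members ranked in the same order from the top in both genotypes for the leading 3. In Nsd2 f/f, Ccl5 was highest at 35.5 ± 51.9 CPM per kb (SD, n = 3), followed by Gzma at 5.92 ± 4.52 and Gzmb at 4.88 ± 4.20. These 3 did not differ beyond their spread. Cd7 (2.76 ± 0.936) and Nkg7 (2.24 ± 0.975) came next and lay within each other's spread. Itgae (0.684 ± 0.140), Cd3g (0.653 ± 0.138) and Cd8a (0.637 ± 0.407) were nearly level, above Cd160 (0.411 ± 0.0700) and Cd3e (0.228 ± 0.0791). In Nsd2 Vil-KO, Ccl5 was at 9.95 ± 9.16, Gzma at 6.16 ± 2.82, Gzmb at 5.22 ± 4.08 and Cd3e lowest at 0.273 ± 0.149 CPM per kb (SD, n = 3).

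The order of the libraries cut across the genotypes. f/f 3 was the lowest library for 6 members, Vil-KO 2 for 3 and Vil-KO 3 for 1. The top library was Vil-KO 1 for 4 members, f/f 2 for 3, f/f 1 for 2 and Vil-KO 3 for 1. Summed over the members, the level was 128, 43.1 and 14.2 CPM in Nsd2 f/f and 60.3, 24.9 and 22.4 CPM in Nsd2 Vil-KO. Ccl5 made up most of the first sum, and without it the sums were 36.7, 34.1 and 12.4 CPM and 41.0, 17.8 and 20.1 CPM. For 9 of the 10 members the lowest library was 1 of the 2 libraries with Xist. Only 3 members had both of these libraries below all 4 others. Vil-KO 3, without Xist, had the same median rank over the members as Vil-KO 2 with Xist, 2 where 1 is lowest. How many of all tested genes were lowest in a library with Xist was not counted. Between the 2 libraries with Xist, 6 members had more and 4 had less in Nsd2 Vil-KO. Between the means of the 4 libraries without Xist, 3 members were higher and 7 lower. Whether the Xist-containing libraries, or the mitochondrial share of 19.6% in f/f 3, had a part in the low member levels was not tested.

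**Figure D3:**
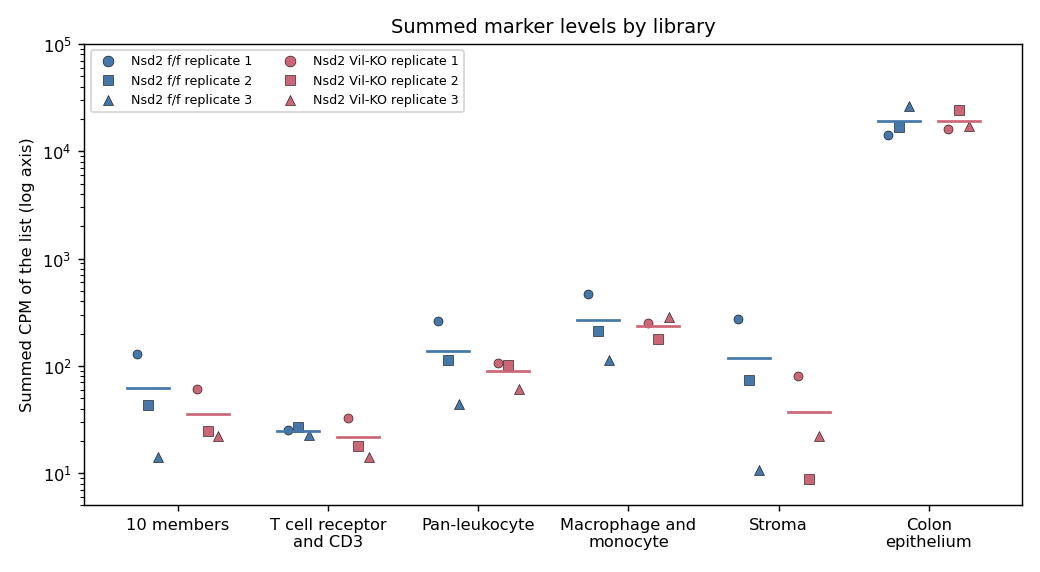
Summed CPM of marker lists in each library on a log axis; symbols and colours are as for the single genes and bars are group means (n = 3). The member, pan-leukocyte, macrophage and stromal sums are highest in f/f 1, whereas T cell receptor and CD3 genes and epithelial markers vary less. Much of the macrophage sum is Cd14.

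Like the member sum, the sums of several marker lists of other cells were highest in f/f 1. Pan-leukocyte markers summed to 259, 113 and 43.8 CPM in Nsd2 f/f and to 106, 102 and 60.9 CPM in Nsd2 Vil-KO. Rac2 alone gave 60.86 of the 102 CPM in Vil-KO 2, and was at 11.4 CPM in Vil-KO 1 and 5.4 CPM in Vil-KO 3. Of the 8 pan-leukocyte markers 7 had lower estimates in Nsd2 Vil-KO and none passed the criterion. The common leukocyte antigen gene Ptprc had a log2 fold change of -0.76 (SE 0.64). Ptprc, Cd52, Laptm5 and Lcp1 were lowest in Vil-KO 2, whereas Cd53, Coro1a, Rac2 and Arhgdib were lowest in f/f 3. Stromal, endothelial and muscle markers summed to between 10.7 and 273 CPM in Nsd2 f/f and between 8.88 and 80.7 CPM in Nsd2 Vil-KO. Of these, 11 of 11 tested markers were lower and the endothelial marker Pecam1 was past the criterion. For Pecam1, edgeR's quasi-likelihood test gave an unadjusted p of 0.046 and an adjusted p of 0.99. It was not past the criterion within the 4 libraries without Xist (-0.895) or with Xist as a covariate (-1.34). Macrophage and monocyte markers summed to between 113 and 469 CPM and between 178 and 283 CPM, and 9 of 10 had lower estimates with none past the criterion. Much of these sums was Cd14, the marker with a higher estimate. It gave 234 of the 469 CPM in f/f 1 and 99.1 of the 113 CPM in f/f 3. Within the 4 libraries without Xist, where 805 genes were called lower, Csf1r (-1.55), C1qa (-1.53), C1qb (-1.42) and C1qc (-1.34) passed the criterion. So did the pan-leukocyte markers Laptm5 (-1.29) and Arhgdib (-1.15). With Xist as a covariate Laptm5 passed it (-0.95) and the others did not. Neutrophil markers summed to 2353 CPM in Vil-KO 2 and to between 198 and 885 CPM in the other libraries. The sum of Vil-KO 2 was mostly Ly6g (1355 CPM), S100a8 (574 CPM) and S100a9 (405 CPM), and other markers of the list did not follow. Csf3r was lowest in Vil-KO 2, at 0.666 CPM, and Cxcr2 and Retnlg were highest in f/f 1. Colon epithelium markers divided evenly, with 5 higher, 5 lower and a median log2 fold change of 0.0049. The share of these other cells in the member levels was not tested.

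Once divided by the CD3 sum of the same library, the values of the genotypes still overlapped for all 8 members other than Cd3e and Cd3g. The summed CD3 level was 5.60, 5.85 and 5.49 CPM in Nsd2 f/f and 8.14, 3.50 and 3.42 CPM in Nsd2 Vil-KO. The sum of f/f 3 was near that of its group through Cd3d, which was highest there at 2.99 CPM, whereas its Cd3e was the lowest of all. Over Cd3e and Cd3g alone the sums were 3.47, 3.54 and 2.18 CPM in Nsd2 f/f and 5.26, 1.44 and 1.84 CPM in Nsd2 Vil-KO. Per unit of CD3, Gzma and Gzmb together stood at 3.63, 2.86 and 0.338 in Nsd2 f/f. In Nsd2 Vil-KO the same ratio was 2.79, 2.51 and 2.81. It lay between 2.51 and 3.63 in 5 libraries of both genotypes and was lowest in f/f 3. Over Cd3e and Cd3g alone the ratio lay between 4.32 and 6.08 in those 5 libraries and was 0.852 in f/f 3. The sum of both granzymes was formed after their values were seen.

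Cd8a per unit of CD3 behaved likewise, at 0.620, 0.485 and 0.118 in Nsd2 f/f and 0.443, 0.508 and 0.492 in Nsd2 Vil-KO. Cd160 was the steadiest, between 0.144 and 0.222 in all 6 libraries, a span of 1.55 times. Ccl5 spanned 50.4 times, from 0.324 in f/f 3 to 16.3 in f/f 1. Over the 8 members other than Cd3e and Cd3g, the log2 ratio of the genotype means had a median of 0.03. These ratios rest on few reads for the CD3 genes and are a description without a test.

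**Figure D4:**
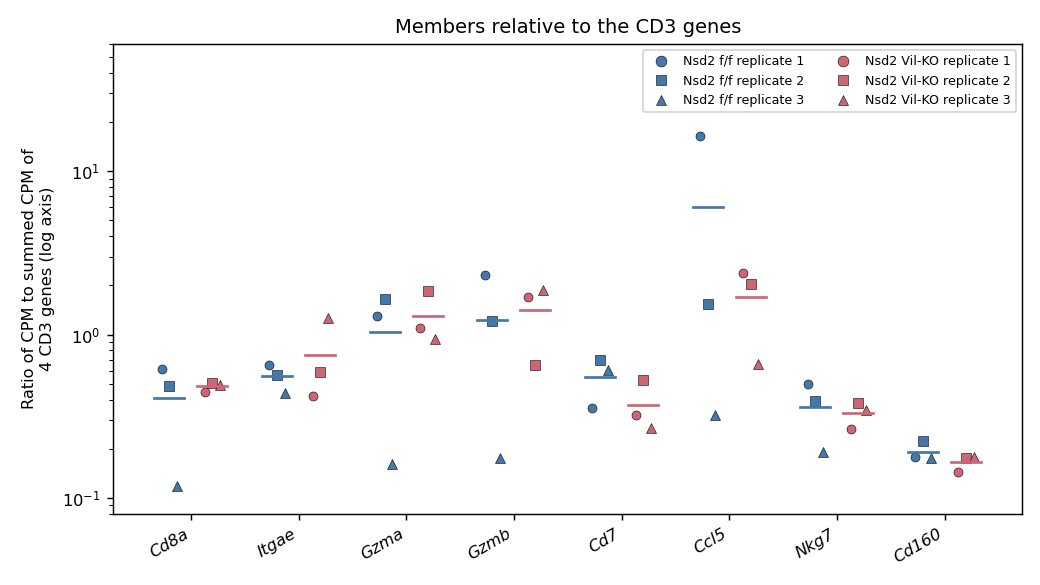
CPM of 8 members divided by the summed CPM of Cd3d, Cd3e, Cd3g and Cd247 in the same library, on a log axis, with group means as bars (n = 3). For Cd8a, Gzma and Gzmb f/f 3 is the lowest library, the other 5 spanning 0.651 to 2.33 for Gzmb, while Cd160 stays between 0.144 and 0.222.

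The T cell receptor genes around the members did not move as a block. Of 17 tested genes of the T cell receptor and CD3 signalling list, 5 had higher and 12 had lower estimates, with a median log2 fold change of -0.31. Past the screening criterion were 3, all lower, where 1.65% of all tested genes were called lower. All 3 were constant-region genes of the gamma chain, which is used by gamma delta T cells. Tcrg-C1 had 13, 25 and 12 counts in Nsd2 f/f and 10, 1 and 2 in Nsd2 Vil-KO. Tcrg-C2 had 28, 31 and 22 counts in Nsd2 f/f and 21, 7 and 3 in Nsd2 Vil-KO. Tcrg-C4 had 17, 16 and 14 counts in Nsd2 f/f and 6, 0 and 3 in Nsd2 Vil-KO. For each gene all Nsd2 Vil-KO libraries were below all Nsd2 f/f libraries, Vil-KO 1 being the nearest to them. With Cd2 (-0.31, SE 0.42), 4 of the 17 tested genes lay wholly lower, against 4.70% of all tested genes.

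The log2 fold changes were -2.17 (SE 0.77) for Tcrg-C1, -1.64 (SE 0.62) for Tcrg-C2 and -2.59 (SE 0.76) for Tcrg-C4. By edgeR's quasi-likelihood test the unadjusted p-values were 0.0236, 0.0343 and 0.0092, and the adjusted p was 0.99 for each, so none passed the correction over all genes. The two-sided exact permutation p was 0.1 for each, the smallest possible. Tcrg-C4 stayed past the screening criterion under all 16 alternatives that could be computed for it. Tcrg-C1 was no longer past it under 5 of 16, including without f/f 2 (-1.79), Vil-KO 2 (-1.75) or Vil-KO 3 (-1.83) and within the 4 libraries without Xist (-1.75). Tcrg-C2 was no longer past it under 7 of 16, among them each omission of 1 library other than Vil-KO 1, with -1.76, -1.55 and -1.58 without f/f 1, f/f 2 and f/f 3 and -1.46 and -1.20 without Vil-KO 2 and Vil-KO 3. Without Vil-KO 1 the 3 values were -3.57, -2.60 and -3.48. The gamma constant genes are related copies, Tcrg-C1 and Tcrg-C2 closely so, and how the counting shared reads between them is not given, so these calls are uncertain and are not independent of each other.

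The alpha chain gene Trac had a log2 fold change of -0.04 (SE 0.53) with overlapping genotypes. The delta constant gene Trdc, whose protein pairs with the gamma chain, had 6, 10 and 3 counts in Nsd2 f/f and 5, 28 and 6 in Nsd2 Vil-KO, and did not pass the filter on low counts. Sums over whole receptor loci were formed after these values were seen and are given without a test. Over 15 gamma segments the counts were 63, 86 and 58 in Nsd2 f/f and 50, 10 and 14 in Nsd2 Vil-KO, which is 4.30 ± 1.04 and 1.24 ± 1.04 CPM (SD, n = 3). Over 11 delta segments they were 26, 15 and 3 in Nsd2 f/f and 9, 33 and 23 in Nsd2 Vil-KO, which is 0.806 ± 0.528 and 1.15 ± 0.696 CPM. The alpha segments stood at 1.69 ± 0.867 and 1.55 ± 0.742 CPM and the beta segments at 4.73 ± 0.308 and 4.77 ± 1.40 CPM. The gamma sum was mostly Tcrg-C1, Tcrg-C2 and Tcrg-C4 themselves, with 58, 72 and 48 counts in Nsd2 f/f and 37, 8 and 8 in Nsd2 Vil-KO. The other 12 gamma segments had 5, 14 and 10 counts against 13, 2 and 6 and overlapped, as did the alpha, beta and delta sums.

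**Figure D5:**
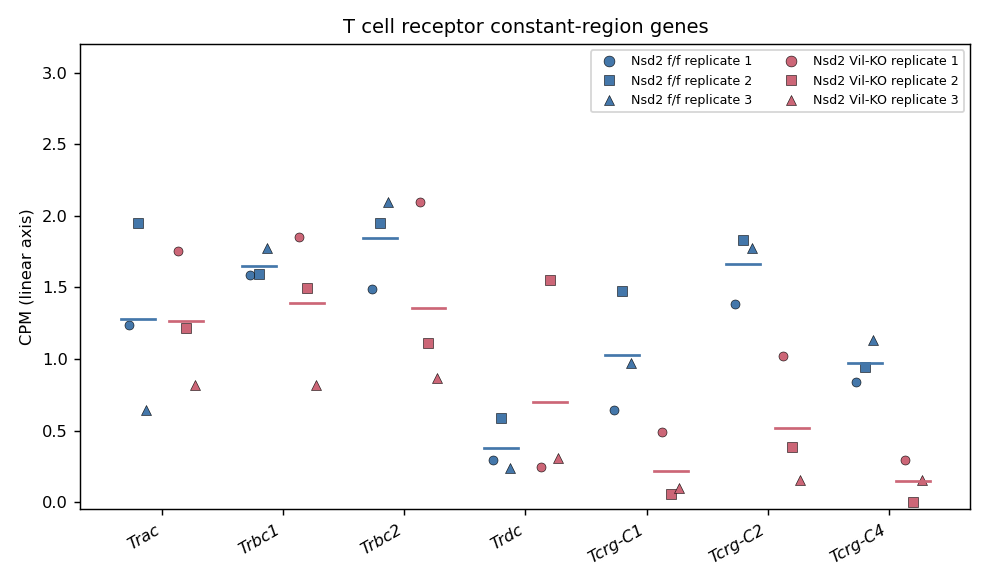
CPM of T cell receptor constant-region genes in each library on a linear axis, with group means as bars (n = 3). The Nsd2 Vil-KO libraries lie below all Nsd2 f/f libraries for Tcrg-C1, Tcrg-C2 and Tcrg-C4, and the genotypes overlap for Trac, Trbc1, Trbc2 and Trdc.

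Among the remaining lymphocyte lists none held a gene past the criterion apart from the epithelial partners. Natural killer type receptors and adaptors had 1 gene higher and 5 lower of 6 tested, with Klrd1 at -0.32 (SE 0.57). Effector cytokines and chemokines had 1 higher and 3 lower of 4, and lymphocyte transcription factors 3 higher and 4 lower of 7. Co-receptors and helper T cell genes had 2 higher and 2 lower of 4 tested. Of 14 epithelial genes whose products act on intraepithelial lymphocytes, 10 were higher and 4 lower, with a median log2 fold change of 0.10. Ulbp1, which encodes a ligand of the activating receptor NKG2D, was past the criterion, at 2.87, 2.36 and 2.58 CPM in Nsd2 f/f and 4.29, 5.33 and 4.39 CPM in Nsd2 Vil-KO. Its groups did not overlap, the log2 fold change was 0.84 (SE 0.32), and edgeR's quasi-likelihood test gave an unadjusted p of 0.036 and an adjusted p of 0.99. It was no longer past the criterion without f/f 1 (0.92), f/f 2 (0.77), f/f 3 (0.83), Vil-KO 1 (0.90) or Vil-KO 3 (0.88). Within the 4 libraries without Xist, Ulbp1 (0.73), Btnl4 (0.41) and Btnl6 (0.40) were past it, in a setting where 841 genes were called higher. With Xist as a covariate Btnl4 was past it (0.39) and Btnl6 was not (0.13).

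The 5 other genes whose levels most resembled the members' mean profile across the 6 libraries were Igfbp5, Xkr4, Khdc1a, Mfap4 and 1810019D21Rik, with Pearson correlations from 0.977 to 0.996 on the log2(CPM + 1) scale. They were picked as the highest of 13367 genes that averaged 1 CPM or more, over only 6 points that share library and depth, so the values are a description. Igfbp5 was at 4.31, 4.08 and 0.485 CPM in Nsd2 f/f and at 5.41, 0.444 and 0.664 CPM in Nsd2 Vil-KO. It was thus high in f/f 1, f/f 2 and Vil-KO 1 and low in the other 3 libraries. Of the members, Nkg7 correlated best with the members' mean (0.944) and Cd7 least (0.338). Each member is itself part of that mean, which raises its correlation, so these values cannot be set against those of the other genes.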

How the data were processed

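RNA-seq counts of 55487 genes in 6 libraries of DSS-treated colon IECs were analysed. The authors deposited raw, unnormalised counts per gene. Per their methods and the labels, reads were trimmed and aligned with HISAT2 to GRCm38 (mm10). The counting program and its strand setting are not given in the sources used here, and the library kit in the labels is another than that in the methods. The methods describe FPKM values tested with Ballgown, which were not used here: the counts were tested with edgeR (version 4.0.16, R 4.3.3) by the quasi-likelihood test with TMM scaling, filterByExpr and Benjamini-Hochberg adjustment, without covariates. CPM are counts scaled by the TMM-adjusted library size. Alternatives used DESeq2 (1.42.0) and limma (3.58.1), other scalings and filters, covariates and the omission of libraries. A count of 3 corresponded to 0.146 to 0.242 CPM, and counting intervals cover counting error only. Groups and replicate numbers come from the labels and all 6 columns of values were mapped, with 0 left over. Gene positions are from GENCODE (GRCm38), which held 99.5% of the identifiers. Tcrg-C1, Tcrg-C2 and Tcrg-C4 are listed in the table under other symbols and were matched by GENCODE name.

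The members and the 16 lists with 161 other genes were chosen with earlier results of these data known. The text names every member and lymphocyte-list genes past the screening criterion (fold change above 1.2, unadjusted p below 0.05). It also names 13 partner genes fixed by name and the 5 genes most alike in profile. Ccl3, Ccl4, Ifng, Ncr1, Klrb1c, Klrk1, Klra7, Klre1 and Pecam1 were added after their values were seen. So were Il2rb, Cd244a, Hcst, Tyrobp, Fcer1g, Btnl4, Btnl6 and Cd2. The same holds for the named neutrophil, macrophage and monocyte, and pan-leukocyte markers other than Ptprc. B and plasma cell, neutrophil, dendritic cell and mast cell lists had median log2 fold changes of -0.26, -0.37, -1.02 and -0.33.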

Additional observations from a re-analysis of the deposited data

How the results depend on the processing

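The alternatives were other scalings, filters and tests, a replicate block, an Xist covariate, the 4 Xist-free libraries, other fold limits and omission of each library. No member was called under 18 of 19 alternatives. The exception was the omission of Vil-KO 1, which called Cd3g (range over omissions 0 to 1). Of 168 member values under alternatives, 148 kept their direction and 20 turned. Summing rows of a repeated symbol gave no value because no member symbol had more than 1 row.

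Genes called at an adjusted p below 0.05 numbered 4 with DESeq2. Genes past the screening criterion numbered 377 higher and 484 lower without a filter, 682 and 758 with limma-voom, 547 and 598 with an Xist covariate, 841 and 805 among the 4 Xist-free libraries, and 125 and 154 at a fold limit of 2. Over omissions of 1 library they ranged from 117 (without f/f 2) to 364 (without Vil-KO 2) higher, and from 171 to 405 (without Vil-KO 2) lower. The cause was not tested.

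The replicate numbers did not pair the libraries: deviations from the group mean correlated by 0.32, -0.35 and -0.11 for numbers 1 to 3. The replicate block gave 133 genes higher, and turned Cd8a to 0.16, Trac to 0.035 and Tnfrsf14 to -0.028. Under it Tcrg-C1 (-2.25), Tcrg-C2 (-1.82) and Ulbp1 (0.84) were no longer past the screening criterion. No other call changed among the members and the partner genes fixed by name.

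Among log2 fold changes that turned, Cd8a was 0.012 with DESeq2 and 0.14 with Xist as a covariate, and Gzma was -0.0033 with library size alone, -0.58 with limma-voom and -0.46 without the Xist libraries. Cd247 was -0.11 with limma-voom, and with Xist in the model Trac was 0.015 and Tnfrsf14 -0.029.

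Ranges over the omission of each library, with the omissions that turned the sign, were as follows. Cd3e ranged from -0.30 (without Vil-KO 1) to 0.49, Cd3g from -1.29 to 0.042 (without Vil-KO 2) and Ccl5 from -2.87 to 0.81 (without f/f 1). Cd8a ranged from -0.45 to 0.39 and turned without f/f 1 (0.39), f/f 2 (0.14), Vil-KO 2 (0.15) or Vil-KO 3 (0.18). Itgae ranged from -0.20 (without Vil-KO 3) to 0.28 and turned also without f/f 3 (-0.095). Gzma ranged from -0.45 (without f/f 3) to 0.56 and turned also without Vil-KO 1 (-0.31) or Vil-KO 2 (-0.00096). Gzmb ranged from -0.71 (without Vil-KO 1) to 0.88 and turned also without f/f 3 (-0.41). Among partner genes, Trac ranged from -0.35 to 0.38 (without f/f 2; 0.19 without Vil-KO 3), Cd8b1 from -0.031 (without Vil-KO 1) to 0.60, Itgb7 from -0.61 to 0.37 (without f/f 1) and Klrd1 from -0.58 to 0.071 (without Vil-KO 3; 0.050 without f/f 2). Cdh1 ranged from -0.0027 (without Vil-KO 3) to 0.19, and Tnfrsf14 from -0.19 (without f/f 3 or Vil-KO 3; -0.14 without Vil-KO 1) to 0.55.

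There were 3 libraries per genotype and as few as 7 reads for a member in a library. The widest interval did not belong to the member with the fewest reads. Ccl5, with the most reads of the members (2586), had the widest, -4.93 to 1.25. Cd160, with the fewest (101), had one of -1.55 to 0.68. Each interval gives the error of an estimate, and the size of difference that could be detected was not tested.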
